A study of Mus musculus with 76 samples.

Results

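The collagens and fibroblast matrix genes of 38 mouse tumors are described here, a set of 39 genes chosen by symbol, each of which matched 1 of the 55536 genes of the count table. The rule for choosing them held no threshold on expression. They comprise 17 collagen chains, proteoglycans, elastic fiber and matricellular proteins, enzymes and helpers of collagen processing, the growth factor Igf1 and both receptors for platelet-derived growth factor (PDGF). The study asked how catalase, the enzyme that breaks down hydrogen peroxide, changes transcription when it is placed outside or inside tumor cells.

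All tumors grew under the flank skin of young adult female Balb/c mice, and RNA came from the whole tumor. CT26 is a colon carcinoma line, of which 1000000 cells were inoculated, and 4T1 is a mammary carcinoma line, of which 500000 cells were inoculated. Extracellular catalase (EC CAT) was CAT-ABP, a recombinant catalase carrying an alum-binding peptide, which was injected into the tumor at 20 µg on day 6 together with 100 µg alum. Intracellular catalase (IC CAT) came from 4T1-CAT cells, which carry a lentiviral, doxycycline (DOX)-inducible cassette for catalase and GFP. 4T1-control cells carry the same kind of cassette with GFP only, and mice with either engineered line ate a DOX diet from day 4. Every group, the comparators included, received 100 µg alum, and tumors were taken on day 8, so no tumor without alum is described. These days are those of the sample labels, and the study's own text places the diet, the injection and the harvest a day later each. The groups were CT26 alum (n = 5), CT26 CAT-ABP + alum (n = 6), 4T1 alum (n = 5), 4T1 CAT-ABP + alum (n = 6), 4T1-control alum (n = 6), 4T1-CAT alum (n = 5) and 4T1-CAT CAT-ABP + alum (n = 5).

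Fibroblasts secrete collagens as procollagen chains, which wind into a helix inside the cell and are trimmed and crosslinked outside it. Fibrillar collagens give tissue its tensile strength, collagen IV and collagen XVIII belong to basement membranes, and collagen VI forms beaded filaments around cells. In tumors, fibroblasts activated by transforming growth factor beta (TGF-beta) and PDGF are a main source of this matrix, although carcinoma cells, pericytes and endothelial cells also make parts of it.

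4 promoter windows are shown because their genes carry the results that follow, each running from 250 bases before to 50 bases from the start site of a RefSeq transcript on GRCm38.p6, 5′ to 3′ on the gene's own strand. Col4a1 and Col4a2 encode the chains of collagen IV and lie head to head, with start sites 21 bases apart and windows that share 78 bases. Postn and Pcolce are the members with the largest differences between tumor lines in each direction. Capitals mark 3 short motifs found on either strand, TATAAA (the TATA box), CCAAT (the CCAAT box) and GGGCGG (the GC box). The letters ATTGG in capitals are thus CCAAT on the opposite strand, and likewise for CCGCCC.
Col4a1 (chr8:11312777-11313076, minus strand): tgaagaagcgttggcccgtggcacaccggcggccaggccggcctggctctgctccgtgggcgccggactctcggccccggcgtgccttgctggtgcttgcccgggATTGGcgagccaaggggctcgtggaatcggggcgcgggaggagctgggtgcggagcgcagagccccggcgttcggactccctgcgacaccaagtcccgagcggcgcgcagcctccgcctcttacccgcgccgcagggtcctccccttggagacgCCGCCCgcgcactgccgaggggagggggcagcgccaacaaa
Col4a2 (chr8:11312555-11312854, plus strand): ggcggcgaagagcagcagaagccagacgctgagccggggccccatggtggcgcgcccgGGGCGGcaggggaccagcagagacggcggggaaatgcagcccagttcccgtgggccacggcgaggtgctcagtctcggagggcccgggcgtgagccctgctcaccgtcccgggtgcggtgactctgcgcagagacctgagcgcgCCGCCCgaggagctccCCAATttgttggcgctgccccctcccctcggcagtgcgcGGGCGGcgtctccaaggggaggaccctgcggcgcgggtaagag
Postn (chr3:54360857-54361156, plus strand): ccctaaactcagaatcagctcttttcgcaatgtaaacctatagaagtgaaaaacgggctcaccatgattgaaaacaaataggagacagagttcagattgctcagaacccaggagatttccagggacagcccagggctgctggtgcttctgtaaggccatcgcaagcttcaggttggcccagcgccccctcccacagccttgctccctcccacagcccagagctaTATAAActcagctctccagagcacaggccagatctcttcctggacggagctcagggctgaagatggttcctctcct
Pcolce (chr5:137611355-137611654, minus strand): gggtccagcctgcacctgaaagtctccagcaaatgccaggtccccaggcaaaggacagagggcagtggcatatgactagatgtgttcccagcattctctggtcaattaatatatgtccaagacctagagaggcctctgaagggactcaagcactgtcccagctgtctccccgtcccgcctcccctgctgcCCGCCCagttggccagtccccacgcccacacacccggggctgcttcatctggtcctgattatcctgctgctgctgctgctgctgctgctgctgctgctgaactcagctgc
In the printed Postn window TATAAA lay at positions -26 to -21 from the start site, and in the Pcolce window CCGCCC lay at -60 to -55. Another Postn window, chr3:54359017-54359316, is not printed. It held ATTGG at 25 to 29 from its own start site and no TATAAA. The Col4a1 and Col4a2 windows held CCAAT and GGGCGG but not TATAAA. RefSeq windows were found for 26 of the 39 members, 31 windows in all. TATAAA stood in 6 of these 31 windows and in 13.6% of the 32851 windows of all genes, CCAAT in 9 and in 37.4%, and GGGCGG in 18 and in 35.7%. These matches describe letters only and show no binding.

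Counts came from a protocol that reads the 3′ end of each transcript, with 2 technical libraries summed per tumor, and levels are CPM, counts scaled to one library size so that tumors of unequal depth can be compared. Tumor totals ran from 493044 counts in 4T1-control alum replicate 2 to 9077549 counts, and the 4T1 CAT-ABP + alum tumor of replicate 4 was also shallow at 837403. All 39 members had counts in all 38 tumors. Of 12 fibroblast markers 7 are members themselves, and of the other 5, Thy1, Fap, Dpt and Acta2 were counted in every tumor and Pi16 in 37. Whole tumors hold mixed cells, and fewer cells of a type cannot be told apart from less RNA per cell, nor tumor cell RNA from host cell RNA. Pools were inferred here from the first part of each library's index tag, and the tags do not say which libraries were sequenced together. These pools also split by group. All CT26 and 4T1 CAT-ABP + alum tumors and 2 of the 5 4T1 alum tumors shared one pair of pools. The other 3 and all 4T1-CAT and 4T1-control tumors shared the other pair.

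The members together took a smaller share of counts in CT26 tumors than in 4T1 tumors. Their summed level ran from 3479 to 5627 CPM in CT26 alum tumors and from 3784 to 5213 CPM with CAT-ABP. In 4T1 it ran from 7632 to 8275 CPM under alum and from 6292 to 9250 CPM with CAT-ABP. It ran from 5269 to 8457 CPM in 4T1-control alum tumors, from 6924 to 12665 CPM in 4T1-CAT alum tumors and from 7034 to 8734 CPM in 4T1-CAT CAT-ABP + alum tumors. CT26 tumors therefore did not overlap parental 4T1 tumors in this sum, while the groups of 4T1 and its derivatives overlapped one another and the lowest 4T1-control tumor lay within the CT26 range. The lowest group mean was in a CT26 group for 32 of the 39 members, 17 in CT26 alum and 15 in CT26 CAT-ABP + alum. The highest group mean was in 4T1-CAT alum for 25 members, and 24 members had their highest single level in 1 tumor of that group, replicate 5. The lowest single level of 15 members was in CT26 alum replicate 5.

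**Figure D1:**
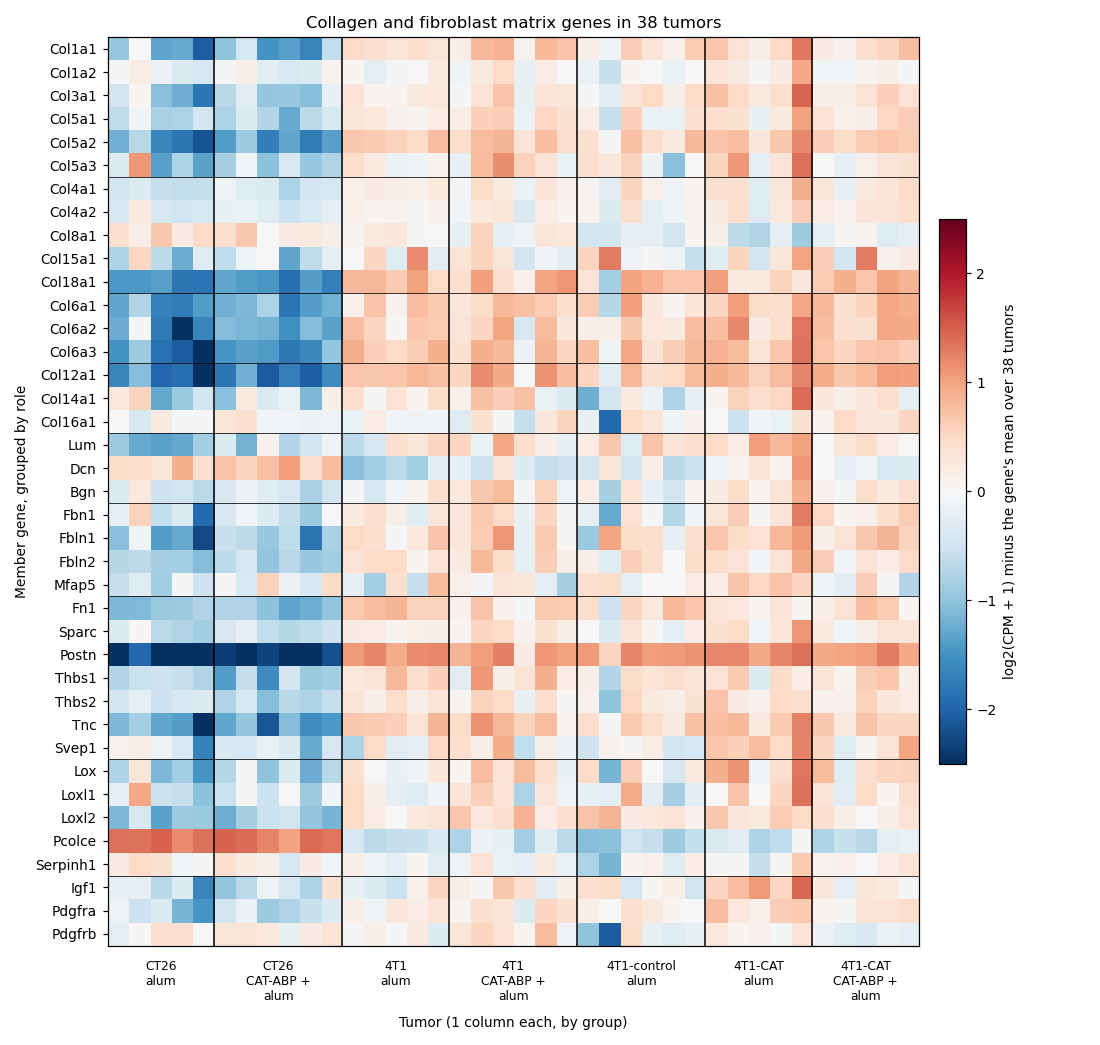
Levels of the 39 members in the 38 tumors, as log2(CPM + 1) minus the member's mean over all tumors. Rows are members grouped by role and columns are tumors grouped by line and treatment. The CT26 columns are low for most collagens and matricellular proteins and high for Pcolce and Dcn, and the last 4T1-CAT alum column, replicate 5, holds the highest level of 24 members.

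The span between groups differed strongly from member to member. The ratio of the highest to the lowest group mean was 14.4 for Postn, 6.49 for Col12a1, 5.88 for Col6a3 and 5.39 for Col18a1. It was 1.49 for Col4a2, 1.43 for Col1a2, 1.39 for Serpinh1, a collagen chaperone, and 1.35 for Col16a1. Across members the median SD of the group means was 0.50 log2 units, against 0.33 over all 14646 genes kept for this description. The median SD among tumors of a group was 0.37 log2 units for members and 0.42 for all genes.

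CT26 tumors had lower levels of most matrix genes than 4T1 tumors under alum alone. Of 38 members tested, 22 were lower in CT26 and 2 were higher at an adjusted p of 0.05 or less (edgeR quasi-likelihood test, Benjamini-Hochberg over all genes tested). Over all 12817 genes tested, 21.1% were lower and 21.3% were higher. The median log2 fold change was -0.72 for the members and 0.02 for all genes, and 32 of 38 members were on the lower side. Members also varied together within groups, so they are not separate observations. By role, lower calls fell on 4 of 6 fibrillar collagens, 2 of 4 basement membrane and network collagens, all 3 collagen VI chains, 1 of 3 fibril-associated collagens and 6 of 7 matricellular and adhesive proteins. They also fell on 2 of 4 elastic fiber proteins, on Lum among 3 leucine-rich proteoglycans, on Lox and Loxl2 among 5 processing genes and on Pdgfra among Igf1 and both PDGF receptors.

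Under CAT-ABP + alum, in other mice of both lines, 29 of 38 members were lower in CT26 and 2 were higher, against 23.7% lower and 21.8% higher of 13016 genes tested. The median member log2 fold change was -0.94 and that of all genes was -0.02. All 22 members called lower under alum were also called lower here, which is 100% of the alum list and 75.9% of the CAT-ABP list. Pcolce and Dcn were the 2 higher members both times. 7 members passed the threshold as lower with CAT-ABP and not with alum, namely Col5a3, Col4a2, Bgn, Fbn1, Svep1, Loxl1 and Igf1. The test of whether the line difference changed with treatment called 0 members and is given with EC CAT in 4T1 tumors. 7 members passed in neither comparison, namely Col14a1, Col16a1, Col1a2, Col8a1, Mfap5, Pdgfrb and Serpinh1. The CT26 and 4T1 tumors had no overlapping CPM values for 23 of 38 members under alum, against 29.9% of all genes tested, and for 21 under CAT-ABP, against 22.3%. Both times this held for 20 members, against 17.3% of the 12578 genes tested in both.

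**Figure D2:**
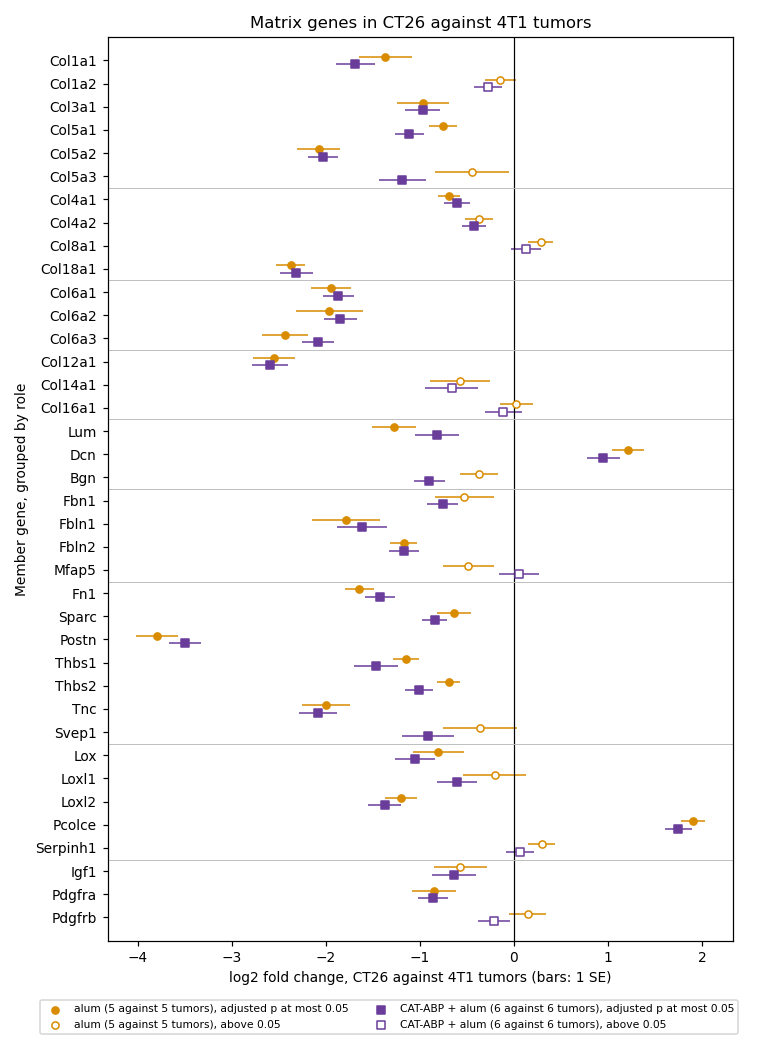
Log2 fold change of CT26 against 4T1 tumors for the 38 members tested, under alum and under CAT-ABP + alum, with bars of 1 standard error and members grouped by role; filled points passed an adjusted p of 0.05 (edgeR). Postn sits lowest at -3.80 and -3.49, and Pcolce and Dcn are the filled points to the right of 0.

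Postn encodes periostin, a matricellular protein of activated fibroblasts that binds collagen and integrins (ENSMUSG00000027750, GRCm38 chromosome 3, 54361109 to 54391037). CT26 alum tumors had 25.0, 39.1, 26.4, 15.0 and 18.8 CPM, and 4T1 alum tumors had 329, 367, 297, 356 and 359 CPM. With CAT-ABP, CT26 tumors had 21.8 to 33.2 CPM (median 27.7) and 4T1 tumors 180 to 376 CPM (median 320). Every CT26 tumor was below every 4T1 tumor. The log2 fold change was -3.80 (SE 0.22, edgeR adjusted p 3.52e-09) under alum and -3.49 (SE 0.17, edgeR adjusted p 1.97e-11) under CAT-ABP. An exact permutation test of log2 CPM gave its smallest two-sided p in this and each of the other members called and named below, 0.00794 for 5 against 5 tumors and 0.00216 for 6 against 6. Groups without overlap always give this smallest p. These members were named for small p-values in the same tumors, so it adds no separate evidence.

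Collagen XII, the product of Col12a1, coats fibrils of collagen I, and collagen XVIII, the product of Col18a1, is a basement membrane proteoglycan. Col12a1 stood at 29.2, 44.5, 23.2, 24.7 and 14.0 CPM in CT26 alum tumors and at 153, 151, 153, 167 and 156 CPM in 4T1 alum tumors, a log2 fold change of -2.55 (SE 0.22). With CAT-ABP it ran from 21.6 to 40.1 CPM (median 27.3) in CT26 and from 94.7 to 213 CPM (median 171) in 4T1, a log2 fold change of -2.59 (SE 0.19). Col18a1 stood at 27.2, 27.4, 28.7, 20.9 and 20.3 CPM in CT26 alum tumors and at 133, 136, 120, 152 and 105 CPM in 4T1 alum tumors, a log2 fold change of -2.37 (SE 0.15). Neither gene had overlapping tumors, and the largest of these edgeR adjusted p-values was 2.38e-07. With CAT-ABP the Col18a1 log2 fold change was -2.31 (SE 0.17).

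The collagen VI chains were lower together in CT26 tumors. Col6a3 stood at 40.9, 61.6, 31.2, 27.0 and 19.3 CPM in CT26 alum tumors and at 221, 178, 163, 180 and 217 CPM in 4T1 alum tumors, a log2 fold change of -2.44 (SE 0.25). Col6a1 averaged 14.0 CPM in CT26 alum and 52.3 CPM in 4T1 alum tumors, with a log2 fold change of -1.94 (SE 0.21) under alum and -1.87 (SE 0.17) under CAT-ABP. Under CAT-ABP the log2 fold change was -1.84 (SE 0.18) for Col6a2 and -2.08 (SE 0.17) for Col6a3. The tumors of the 2 lines were separate for each of these chains in these comparisons. The fibrillar chain Col5a2, part of the collagen V that is built into collagen I fibrils, stood at 33.8 to 94.8 CPM in CT26 alum and 216 to 265 CPM in 4T1 alum tumors. Its log2 fold change was -2.08 (SE 0.23) under alum and -2.03 (SE 0.16) under CAT-ABP.

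Among the adhesive and matricellular genes, Fn1 encodes fibronectin, the glycoprotein on which fibroblasts assemble collagen. It stood at 419, 425, 482, 487 and 547 CPM in CT26 alum tumors and at 1435, 1558, 1647, 1372 and 1364 CPM in 4T1 alum tumors, a log2 fold change of -1.64 (SE 0.16). Thbs1, an activator of latent TGF-beta, was at 26.1 to 30.9 CPM in CT26 and 53.4 to 80.1 CPM in 4T1 under alum, a log2 fold change of -1.15 (SE 0.14). Tnc, which encodes tenascin C of wounds and tumor stroma, ran under CAT-ABP from 47.7 to 108 CPM (median 82.0) in CT26 and from 223 to 461 CPM (median 338) in 4T1, a log2 fold change of -2.08 (SE 0.20). No CT26 tumor reached the level of a 4T1 tumor for any of them in these comparisons, and over all named lower members of both comparisons the edgeR adjusted p was at most 9.16e-06.

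Pcolce and Dcn went the other way. Pcolce encodes an enhancer of the proteinase that trims the C-terminal ends of procollagens (ENSMUSG00000029718, GRCm38 chromosome 5, 137605103 to 137613784). CT26 alum tumors had 190, 186, 203, 166 and 189 CPM and 4T1 alum tumors 54.8, 44.7, 47.5, 48.5 and 54.3 CPM. With CAT-ABP the ranges were 146 to 202 CPM (median 188) in CT26 and 39.6 to 65.4 CPM (median 51.7) in 4T1. All CT26 tumors were above all 4T1 tumors, with log2 fold changes of 1.90 (SE 0.12, edgeR adjusted p 1.18e-08) and 1.75 (SE 0.15, edgeR adjusted p 2.13e-08). Dcn encodes decorin, a small proteoglycan that binds collagen fibrils and TGF-beta. It stood at 335, 322, 302, 453 and 326 CPM in CT26 alum tumors and at 119, 135, 154, 135 and 204 CPM in 4T1 alum tumors, again without overlap. Its log2 fold changes were 1.22 (SE 0.17, edgeR adjusted p 4.00e-05) under alum and 0.95 (SE 0.17, edgeR adjusted p 2.26e-04) under CAT-ABP. Dcn was not separate from the engineered lines. It reached 303 CPM in 4T1-control alum replicate 2 and 523 CPM in 4T1-CAT alum replicate 5, the highest of all 38 tumors. Pcolce was at most 73.4 CPM in any 4T1-derived tumor, in that same replicate 5.

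**Figure D3:**
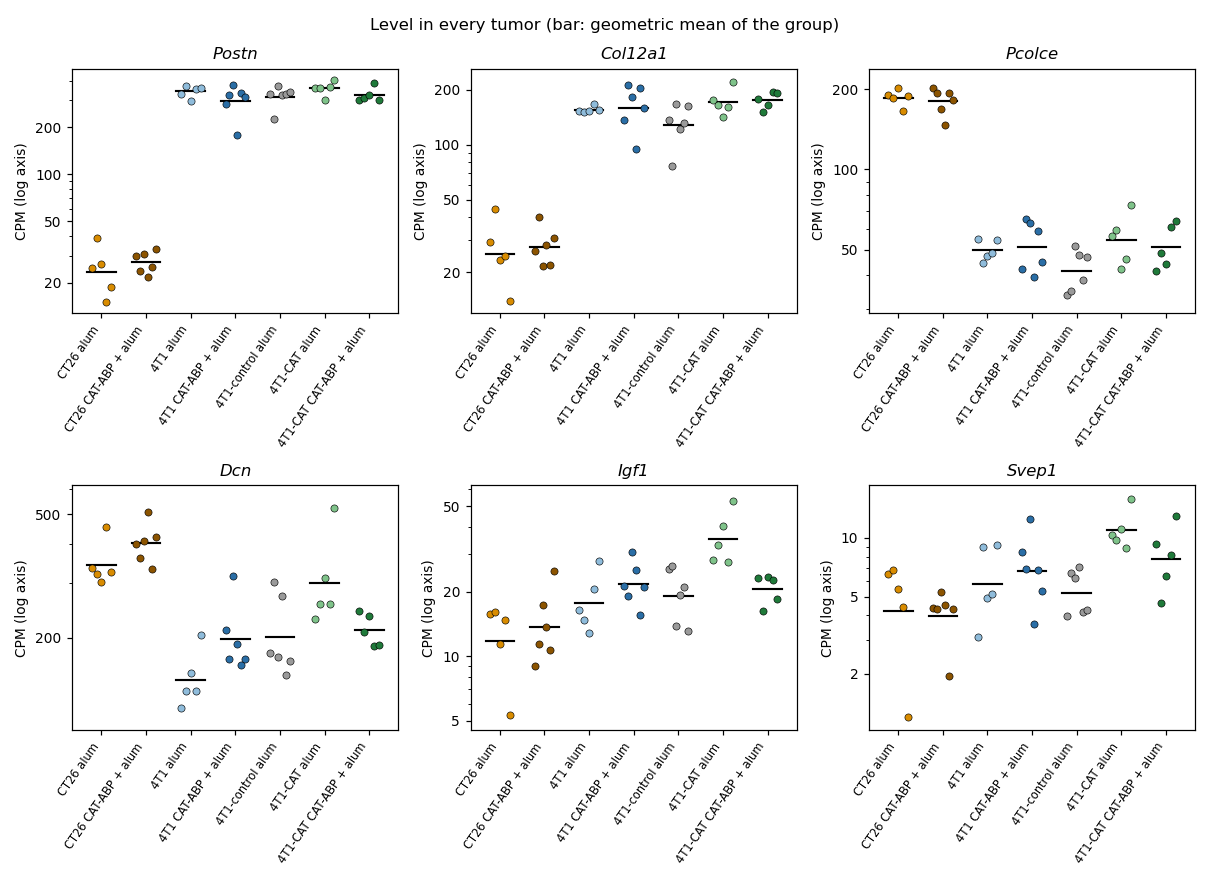
CPM on a log axis of Postn, Col12a1, Pcolce, Dcn, Igf1 and Svep1, 1 point per tumor, with the geometric mean of each of the 7 groups as a bar. All CT26 points lie below all 4T1 alum points for Postn and Col12a1 and above them for Pcolce and Dcn, and 4T1-CAT alum points lie above all 4T1-control alum points for Igf1 and Svep1.

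The genes for the 2 chains of collagen I did not differ alike between the lines. These genes, and the ratios that follow, were chosen after their values were seen. Col1a1 stood at 82.7, 162, 64.1, 67.0 and 37.7 CPM in CT26 alum tumors and at 226, 216, 199, 216 and 199 CPM in 4T1 alum tumors. Col1a2 stood at 805, 943, 754, 654 and 621 CPM in CT26 and at 865, 715, 808, 831 and 967 CPM in 4T1. Col1a1 was thus separate between the lines while Col1a2 overlapped. The log2 fold change of Col1a1 was -1.37 (SE 0.28, edgeR adjusted p 0.00103) under alum and -1.69 (SE 0.21, edgeR adjusted p 4.24e-06) under CAT-ABP. That of Col1a2 was -0.15 (SE 0.17, edgeR adjusted p 0.502) and -0.28 (SE 0.15, edgeR adjusted p 0.144). With the inferred pool as a block, it was -0.06 (SE 0.22) under alum.

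The log2 ratio of Col1a1 to Col1a2 was taken within each tumor from log2 CPM, in which a prior count of 2 adds the same small amount to every CPM. It is given with no test, since the pair was chosen for its values. It was -3.33 ± 0.54 (SD, n = 5) in CT26 alum tumors and -1.98 ± 0.20 (SD, n = 5) in 4T1 alum tumors, a difference of -1.35. It was -3.34 ± 0.28 (SD, n = 6) and -1.89 ± 0.20 (SD, n = 6) under CAT-ABP, a difference of -1.44. Group means in the 4T1-CAT and 4T1-control groups lay between -2.10 and -1.95. The lines did not overlap in either comparison. Between the 5 CT26 alum tumors and the 2 4T1 alum tumors of the same pools the means were -3.33 and -1.83. A ratio of 3′ counts compares 1 pair of genes between tumors and is not a molar ratio of chains.

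The ratio of Col5a1 to Col5a2 went in the other direction. It averaged -0.22 ± 0.45 (SD, n = 5) in CT26 alum tumors and -1.60 ± 0.09 (SD, n = 5) in 4T1 alum tumors, and -0.45 ± 0.40 and -1.39 ± 0.15 (SD, n = 6 each) under CAT-ABP, with no overlap either time. Col4a1 to Col4a2 averaged 0.92 ± 0.22 and 1.22 ± 0.06 under alum, without overlap, and 1.01 ± 0.12 and 1.22 ± 0.11 under CAT-ABP, with overlap. Col6a1 to Col6a2 differed by 0.21 and -0.15 between the lines, and the tumors overlapped both times. Col6a1 to Col6a3 was separate under alum, with a difference of 0.61, and differed by 0.17 under CAT-ABP, with overlap. Col6a2 to Col6a3 differed by 0.40 and 0.32, with overlap both times.

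**Figure D4:**
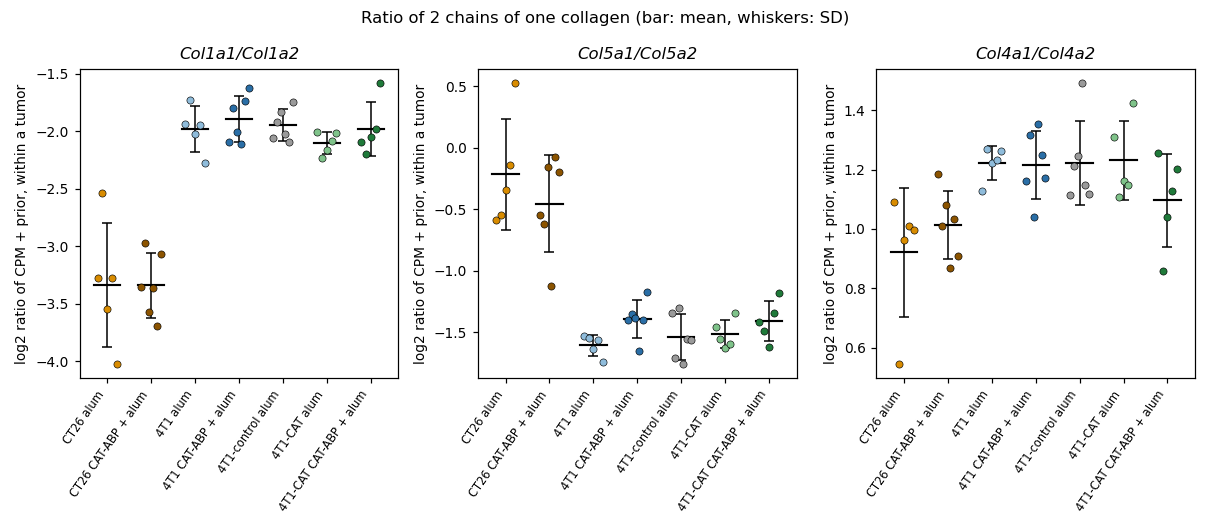
Log2 ratio of CPM, each with the same prior added, of paired collagen chain genes within each of the 38 tumors, by group, with group means as bars and SD as whiskers. For Col1a1/Col1a2 the CT26 tumors lie at -2.54 or below and all 4T1-derived tumors at -2.28 or above, and for Col5a1/Col5a2 CT26 lies above 4T1.

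Genes that act on the same matrix were listed apart from the members. Of 23 other collagen processing genes tested, 5 were higher and 8 lower in CT26 under alum, and 3 and 11 under CAT-ABP. The shares over all genes were 21.3% higher and 21.1% lower under alum, and 21.8% and 23.7% under CAT-ABP. The higher count under alum lay near its share. Bmp1, the proteinase that Pcolce enhances, stood at 17.4 ± 4.1 CPM (SD, n = 5) in CT26 alum and 115 ± 20 CPM (SD, n = 5) in 4T1 alum tumors, with log2 fold changes of -2.72 and -2.70 in the 2 comparisons. Pcolce2, the paralog of Pcolce, stood at 2.65 ± 2.28 and 51.6 ± 5.5 CPM, with log2 fold changes of -4.48 and -4.83. Pcolce and Pcolce2 thus differed between the lines in opposite directions. P3h4 and Fkbp10, which act on procollagen in the endoplasmic reticulum, were higher in CT26 by 1.88 and 1.33 on the log2 scale under alum. The largest edgeR adjusted p among these 4 genes under alum was 2.39e-04.

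Of 21 tested genes of TGF-beta and PDGF signaling, 14 were lower in CT26 under alum and 15 under CAT-ABP, and 2 were higher each time. The shares over all genes were 21.1% and 23.7% lower, and 21.3% and 21.8% higher. Ltbp2, a latent TGF-beta binding protein family member, had log2 fold changes of -3.17 and -3.03, and the coreceptor Tgfbr3 of 1.96 and 1.73. Of 11 collagen and fibronectin receptors tested, 6 and 7 were lower and 1 higher, with Itga2, an integrin chain for collagen, at -3.73 and -4.20 and the collagen receptor kinase Ddr2 at 0.81 and 0.65. Of 3 other collagen chains tested under alum, Col7a1, the chain of anchoring fibrils under epithelia, had at most 2 counts in any CT26 alum tumor and 10.96 to 16.06 CPM in 4T1 alum tumors. Col4a5 was higher in CT26 by 1.60 and 2.36.

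Other fibroblast genes were split. Of 19 tested, 8 were higher and 5 lower in CT26 under alum, and 6 and 9 under CAT-ABP. The shares over all genes were 21.3% and 21.1% under alum, and 21.8% and 23.7% under CAT-ABP. The lower count under alum lay near its share. Prrx1, a transcription factor of mesenchymal cells, stood at 133 ± 9 CPM (SD, n = 5) in CT26 alum and 30.0 ± 2.5 CPM (SD, n = 5) in 4T1 alum tumors. Acta2, the smooth muscle actin of myofibroblasts and pericytes, stood at 21.6 ± 7.1 and 163 ± 64 CPM, and Tagln, another contractile gene, at 2.35 ± 0.81 and 27.2 ± 8.7 CPM. Their log2 fold changes were 2.15, -2.90 and -3.44 (edgeR adjusted p at most 8.68e-07).

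Epithelial tumor cell and T cell markers differed between the lines, and the part of other cells in the member differences was not tested. All 7 epithelial tumor cell markers tested were lower in CT26 in both comparisons, with summed levels of 40.9 to 85.8 CPM in CT26 alum and 1962 to 2901 CPM in 4T1 alum tumors. All 6 T cell markers tested were higher, at 79.5 to 165.6 CPM against 17.0 to 28.1 CPM under alum. Of 8 macrophage markers, 2 were higher under alum and 5 under CAT-ABP, and of 9 endothelial markers 2 were lower each time. Pericyte markers were lower for 2 of 5 tested under alum and 1 of 7 under CAT-ABP. Of all genes tested, 21.1% were lower and 21.3% higher under alum, and 23.7% and 21.8% under CAT-ABP. The endothelial counts and the macrophage count under alum lay near these shares, and the pericyte count under CAT-ABP was not above them. Skeletal muscle, adipocyte, neutrophil and epidermis lists had at most 2 calls in either direction.

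With edgeR and its filter on low counts, neither form of catalase moved a member past the threshold. EC CAT in CT26 tumors called 0 of 38 members with edgeR, as did DESeq2 and limma voom, and 3 members stood at an unadjusted p under 0.05, against 2.42% of 12830 genes tested. Leaving out the CT26 CAT-ABP + alum tumor of replicate 3 brought that count to 1. The median member log2 fold change was 0.05. The 3 smallest p-values belonged to Lum, Mfap5 and Thbs2, which did not pass. They were named for those p-values, so the permutation p of each adds no separate evidence. Lum, which encodes the fibril-spacing proteoglycan lumican, stood at 17.7, 13.7, 12.8, 13.5 and 18.6 CPM under alum and at 14.4 to 36.9 CPM (median 25.4) with CAT-ABP, a log2 fold change of 0.73 (SE 0.22, edgeR adjusted p 0.9997, exact permutation p 0.0173), and the groups overlapped. Mfap5, a microfibril protein, had a log2 fold change of 0.52 (SE 0.20) and Thbs2, a matricellular relative of Thbs1, -0.31 (SE 0.13), with exact permutation p of 0.0649 and 0.0130.

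EC CAT in 4T1 tumors called 0 of 39 members with edgeR, DESeq2 or limma voom. 2 members stood at an unadjusted p under 0.05, against 2.88% of 13092 genes, and the median log2 fold change was 0.08. Limma voom put 5 there. Leaving out the 4T1 alum tumor of replicate 1 or 2 or the 4T1 CAT-ABP + alum tumor of replicate 3 brought the count to 0, and leaving out CAT-ABP + alum replicate 6 brought it to 5. Dcn stood at 119, 135, 154, 135 and 204 CPM under alum and at 163 to 317 CPM (median 182) with CAT-ABP, a log2 fold change of 0.44 (SE 0.18, edgeR adjusted p 0.9993, exact permutation p 0.0519). Bgn, the proteoglycan biglycan, had a log2 fold change of 0.41 (SE 0.18) and Pdgfrb, the PDGF receptor of pericytes and fibroblasts, 0.39 (SE 0.19), with exact permutation p of 0.113 and 0.0758. Dcn, Bgn and Pdgfrb were named for small p-values in these tumors, so the permutation p of each adds no separate evidence. Since 3 of the 5 4T1 alum tumors came from other pools, the pool was also fitted as a block, and the log2 fold change was then 0.68 for Dcn (SE 0.25, edgeR adjusted p 0.984), 0.65 for Bgn and 0.36 for Pdgfrb. The EC CAT effect in CT26 minus that in 4T1 called 0 of 39 members with edgeR. It put 0 members at an unadjusted p under 0.05, against 3.59% of 14160 genes (0 to 2 members with each tumor left out in turn), and 0 were called by DESeq2 or limma voom. The smallest p-values were those of Bgn, Mfap5 and Col5a1, with differences of -0.51 (SE 0.27), 0.57 (SE 0.37) and -0.34 (SE 0.22) on the log2 scale (edgeR adjusted p 1). With the pool as a block that of Mfap5 was 0.03.

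IC CAT was compared between 4T1-CAT alum and 4T1-control alum tumors. edgeR called 0 of 39 members, as did DESeq2 and limma voom, but 14 members stood at an unadjusted p under 0.05, all higher in 4T1-CAT, against 5.08% of 12534 genes tested. The log2 fold change was above 0 for 35 of 39 members, with a median of 0.35 against -0.01 for all genes. Members varied together within groups (median r 0.39 over pairs), so these counts are not of separate observations. The highest level of 24 members was in 1 tumor, 4T1-CAT alum replicate 5. The 14 were Col1a2, Col3a1, Col5a3, Col14a1, Dcn, Bgn, Fbn1, Mfap5, Sparc, Svep1, Lox, Pcolce, Igf1 and Pdgfra. The study's own DESeq2 analysis of these samples differed, and listed Dcn, Col14a1, Igf1 and Col1a2 at an adjusted p of 0.05 or less. The study left out some technical replicates of low depth, whereas all were summed here. The cause of the difference was not tested. Since that list was made from these samples, its genes are not independent evidence of the direction. Leaving out the 4T1-CAT alum tumor of replicate 5 brought the count at an unadjusted p under 0.05 to 5, leaving out replicate 3 brought it to 23, and with no filter on low counts 4 of 39 members (Igf1, Col14a1, Fbn1 and Lox) and 131 of 28475 genes, or 0.46%, were called.

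The 3 members with the smallest p-values did not pass. Igf1, a growth factor made by fibroblasts and macrophages, stood at 28.0, 32.8, 40.3, 27.5 and 52.9 CPM in 4T1-CAT alum tumors and at 13.0 to 26.3 CPM (median 20.1) in 4T1-control alum tumors, a log2 fold change of 0.93 (SE 0.22, edgeR adjusted p 0.493, exact permutation p 0.00649). Svep1, a large adhesion protein of mesenchymal cells, stood at 10.4, 9.76, 11.1, 8.86 and 15.8 CPM against 3.96 to 7.06 CPM (median 5.27), a log2 fold change of 1.07 (SE 0.25, edgeR adjusted p 0.493, exact permutation p 0.00216). The groups did not overlap for Igf1 or Svep1. Both were named for small p-values in these same tumors, so this and the permutation p add no separate evidence. The share of all genes without overlap was not taken for this comparison. Col14a1, a fibril-associated collagen, stood at 13.1, 19.3, 17.2, 18.5 and 35.1 CPM against 4.84 to 15.0 CPM (median 9.84), with overlap and a log2 fold change of 1.04 (SE 0.29, edgeR adjusted p 0.611, exact permutation p 0.00866). Col14a1 too was named for its small p-value, so its permutation p adds no separate evidence.

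Some other lists, but not the endothelial one, also held higher genes at an unadjusted p under 0.05 in this comparison. Their part in the member values was not tested. At an unadjusted p under 0.05, higher genes numbered 7 of 18 other fibroblast genes, 5 of 8 skeletal muscle markers, 3 of 4 adipocyte markers, 3 of 5 T cell markers, 3 of 5 neutrophil markers, 1 of 7 macrophage markers and 0 of 9 endothelial markers. Over all genes tested, 5.08% stood there, higher and lower together. Summed muscle markers ran from 340 to 891 CPM (median 503) in 4T1-CAT alum tumors and from 198 to 518 CPM (median 274) in 4T1-control alum tumors.

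CAT-ABP in 4T1-CAT tumors was set against the same 4T1-CAT alum tumors, so this comparison shares a group with the previous one. edgeR called 0 of 39 members, limma voom 0 and DESeq2 1 (Lum, adjusted p 0.0443), where DESeq2 called 266 of all 13093 genes, or 2.03%, a share near that among the members. At an unadjusted p under 0.05 stood 8 members, 7 lower and 1 higher with CAT-ABP, against 15.3% of 13093 genes tested. The median log2 fold change was -0.18, with 30 of 39 members below 0. Here too the members are not separate observations. Igf1 stood at 23.1, 16.3, 23.5, 22.5 and 18.4 CPM with CAT-ABP, all below the 27.5 to 52.9 CPM of 4T1-CAT alum tumors, a log2 fold change of -0.78 (SE 0.19, edgeR adjusted p 0.187, exact permutation p 0.00794). It was named for its small p-value here, and the share of all genes without overlap was not taken. Lum stood at 33.8, 42.3, 47.0, 39.03 and 33.9 CPM against 48.1, 39.04, 71.0, 60.3 and 69.0 CPM, a log2 fold change of -0.55 (SE 0.16, edgeR adjusted p 0.195, exact permutation p 0.0317), and the groups overlapped. Mfap5 had a log2 fold change of -0.60 (SE 0.20, edgeR adjusted p 0.210, exact permutation p 0.0317). Like Igf1, Lum and Mfap5 were named for small p-values, so the permutation p of each adds no separate evidence. Lower at an unadjusted p under 0.05 were also 5 of 9 muscle markers, whose sum ran from 249 to 361 CPM, and 2 of 5 T cell markers, and their part in the member values was not tested. Over all genes tested, 15.3% stood there in either direction, and the other marker lists are not given for this comparison. Leaving out the 4T1-CAT alum tumor of replicate 3 raised the count at an unadjusted p under 0.05 to 15, and leaving out the 4T1-CAT CAT-ABP + alum tumor of replicate 2 lowered it to 5.

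The CAT-ABP effect in 4T1-CAT minus that in 4T1 called 0 of 39 members with edgeR, DESeq2 or limma voom. 9 members stood at an unadjusted p under 0.05, 8 of them with a lower effect in 4T1-CAT, against 8.79% of 13851 genes. Leaving out replicate 3 of the 4T1 alum or the 4T1 CAT-ABP + alum tumors brought the count to 5, and leaving out 4T1-CAT alum replicate 3 brought it to 13. The smallest p-values were those of Pdgfrb, Dcn and Igf1, with differences of -0.81 (SE 0.23), -1.01 (SE 0.29) and -1.005 (SE 0.30) on the log2 scale (edgeR adjusted p 0.529 each). The catalase cassette, the cell sorting and the DOX diet differ together between 4T1-CAT and 4T1 and cannot be told apart here. The inferred pools differ in part too. With the pool as a block, 0 members were called, 7 stood at an unadjusted p under 0.05 and the Dcn difference was -1.26 (SE 0.35).

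**Figure D5:**
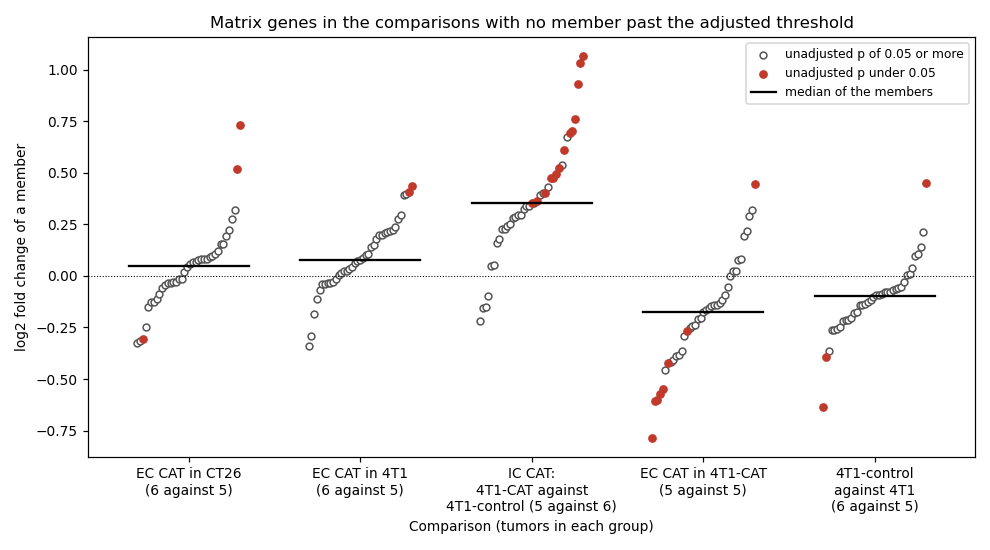
Log2 fold change of each member for EC CAT in CT26, EC CAT in 4T1, IC CAT in 4T1, EC CAT in 4T1-CAT tumors and 4T1-control against 4T1, with the member median as a bar and filled points for an unadjusted p under 0.05. The medians are 0.05, 0.08, 0.35, -0.18 and -0.10, and no point passed an adjusted p of 0.05 with edgeR.

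The engineered control line on the DOX diet was set against parental 4T1, both under alum. edgeR, DESeq2 and limma voom called 0 of 38 members, and 3 stood at an unadjusted p under 0.05 against 10.5% of 12431 genes tested. Col8a1, a short-chain network collagen of vessels, had a log2 fold change of -0.39 (SE 0.14), Col14a1 -0.64 (SE 0.24) and Dcn 0.45 (SE 0.20), with edgeR adjusted p of 0.312, 0.338 and 0.418. The cassette, the cell sorting behind that line and the DOX diet cannot be told apart here. Since 2 of the 5 4T1 tumors came from other pools, the pool was also fitted as a block, which called 0 members with a median log2 fold change of -0.12, and Dcn was at 0.32 (SE 0.23).

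Most pairs of members varied together from tumor to tumor within groups. After the group means were removed, the median Pearson r over the 741 pairs of members was 0.39, with 599 pairs above 0. It was 0.76 over the 15 pairs of fibrillar collagens, 0.57 over the 3 pairs of collagen VI chains and 0.13 over the 3 pairs of leucine-rich proteoglycans. Libraries are scaled to 1 total, so these correlations share that total, and r of single members with the log2 tumor total ran from -0.50 to 0.65.

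Partner chains were correlated over the 38 tumors in a family of 7 pairs. Col4a1 and Col4a2 had r = 0.84 and Spearman rho = 0.81. Col1a1 and Col1a2 had r = 0.81 and rho = 0.83, and Col1a1 and Col3a1, which form mixed fibrils, r = 0.94 and rho = 0.92. Each of these had a permutation p of 1e-05, the smallest that 100000 permutations can give, and 2.33e-05 after adjustment. Without the 2 tumors farthest from the median, r was 0.78, 0.83 and 0.90. Within CT26 tumors r was 0.70, 0.93 and 0.97, and within the 4T1-derived tumors 0.89, 0.82 and 0.89. The other 4 pairs had lower r, 0.67 for Col5a1 and Col5a2, 0.57 for Col6a1 and Col6a2, 0.56 for Col6a1 and Col6a3 and 0.71 for Col6a2 and Col6a3, with rho of 0.67, 0.65, 0.53 and 0.69. Without the 2 farthest tumors r was 0.60, 0.63, 0.45 and 0.67, and the largest adjusted permutation p, over r and rho, was 0.00227. Col5a1 and Col5a2 had r = 0.43 within CT26 and 0.91 within the 4T1-derived tumors. High r was not particular to partner chains. It was 0.89 for Col5a1 and Col4a2, 0.87 for Col1a2 and Sparc and 0.84 for Col4a1 and Sparc, against a median of 0.39 over all pairs.

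The mean of the members was set beside other lists in the same residuals, as a description over 38 tumors. Its r was 0.92 with other fibroblast genes, 0.87 with endothelial markers and 0.86 with other collagen processing genes. It was 0.60 with T cell markers, 0.59 with collagen and fibronectin receptors, 0.57 with macrophage markers, 0.56 with TGF-beta and PDGF signaling genes and 0.55 with pericyte and smooth muscle markers. The lowest were 0.30 with neutrophil, 0.24 with adipocyte, 0.20 with other collagen chains, 0.16 with epithelial tumor cell, 0.14 with skeletal muscle and 0.11 with epidermis markers. Pericyte markers had r = 0.04 within CT26 and 0.80 within the 4T1-derived tumors, and other collagen chains 0.65 and -0.20.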

How the data were processed

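Per the labels, RNA from whole tumors was sequenced with a modified SCRB-seq protocol, and the study's methods name HT3DGE libraries, NextSeq sequencing and a Smart-seq2 pipeline. The authors deposited estimated counts per gene for 76 libraries, which need not be whole numbers, with GENCODE M21 gene identifiers (GRCm38). Whether molecular identifiers were collapsed is not given in the sources used here.

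The 2 technical libraries of each tumor were summed and rounded to whole counts, which leaves 38 tumors. Tumor totals ran from 493044 to 9077549 counts, and intervals cover the spread between tumors only. Groups came from the labels, and the tumors of a group are separate biological replicates. Each comparison was fitted on its own groups in R 4.3.3 with edgeR 4.0.16 (filterByExpr, TMM scaling, quasi-likelihood test, no covariates), with Benjamini-Hochberg adjustment over all genes tested and a threshold of 0.05. Col15a1, the member with the lowest counts, fell under the filter in both comparisons of CT26 with 4T1 tumors, in EC CAT in CT26 tumors and in the 4T1-control comparison, where 38 members were tested. CPM were TMM-scaled, and exact permutation tests used log2 CPM with a prior count of 2, two-sided. Scripts were tested on simulated counts.

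Members with an adjusted p of 0.05 or less were named, at most 8 higher and 8 lower by p in each comparison. Where fewer than 3 passed, the 3 smallest p-values were named. Other pathway genes and markers were limited to 2 in each direction per list and comparison. The members and lists were chosen with earlier results of these data known. In no comparison did every pair of same-numbered tumors deviate together (r of residuals from -0.29 to 0.33), so replicate numbers were not taken as pairs. Alternatives were RLE size factors, DESeq2 1.42.0, limma 3.58.1 voom with sample weights, no filter on low counts, a minimum mean of 20 counts, all 7 groups in 1 model, a replicate block, the pool inferred from index tags as a block, each technical library alone, the shallow libraries left out and each tumor left out. The catalase transgene was not analysed here.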

Additional observations from a re-analysis of the deposited data

Results flagged for a closer look

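In groups of 5 or 6 tumors, 1 tumor stood apart from the others of its group by Dixon's criterion in 8 of 154 combinations of 22 named members and 7 groups, where chance gives about 1 in 20. In 4T1-control alum replicate 2, the shallowest tumor at 493044 counts, Thbs2 was at 65.8 CPM (others 145 to 193), Postn at 228 CPM (others 322 to 367), Col18a1 at 41.7 CPM (others 95.0 to 152) and Thbs1 at 26.3 CPM (others 49.3 to 61.6). Dcn was at 453 CPM in CT26 alum replicate 4, above the 302 to 335 CPM of the others. Pdgfrb was at 10.9 CPM in CT26 CAT-ABP + alum replicate 4, below the 14.6 to 16.2 CPM of the others. Svep1 was at 1.96 CPM in CT26 CAT-ABP + alum replicate 5 (others 4.32 to 5.30) and at 1.21 CPM in CT26 alum replicate 5 (others 4.41 to 6.84).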

How the results depend on the processing

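The 20 named member results past the threshold stayed past it in the same direction in all 430 alternatives run. The 21 named results not past it kept their direction in all 511, and 4 passed the threshold. Members called under alum numbered 21 (inferred pool as a block) to 30 (limma voom) against 24, and under CAT-ABP 28 (technical library 2 alone) to 32 (no filter on low counts) against 31. With each tumor left out in turn they numbered 23 to 30 and 28 to 32, and 0 in every other comparison. With no filter on low counts, IC CAT in 4T1 called 4 members (Igf1, adjusted p 0.00323, Col14a1, 0.0127, Fbn1, 0.0208, and Lox, 0.0399) among 131 genes and EC CAT in 4T1-CAT called 1 (Igf1, 0.0375) among 47 genes, whereas DESeq2 called 1 in EC CAT in 4T1-CAT (Lum, 0.0443) among 266 genes. The cause was not tested. With the replicate number as a block, calls were 25 under alum, 32 under CAT-ABP and 0 elsewhere, and members at an unadjusted p under 0.05 for IC CAT fell from 14 to 5. At most 2 of 5 or 6 number pairs per comparison had r over 0.1, and the labels do not say whether same-numbered tumors share more than a number. The pool could not be fitted as a block where all tumors came from 1 pair of pools. Depth limits the 4T1-control group most, whose shallowest tumor held 493044 counts.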
